A study of Mus musculus with 6 samples.

Results

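The mitochondrial ribosomal protein genes are the nuclear genes whose symbol starts with Mrpl (named for the large ribosomal subunit) or Mrps (named for the small subunit) followed by a number. They were taken by symbol from the deposited table of gene counts, which lists 78 of them among 22192 genes, 49 Mrpl and 29 Mrps. The cells were RAW 264.7, a mouse macrophage-like line labelled as BALB/c. In 3 libraries the cells had received ASPS-A1, an acidic polysaccharide fraction from the leaves of Acanthopanax senticosus, at 200 µg/mL for 24 h, and 3 libraries came from control cells. No dose or time is listed for the control cells. The titles number the treated libraries ASPS-A1, A2 and A3, whereas the treatment label is ASPS-A1 for all of them, and the libraries were grouped by that label. Nothing in the labels says whether the 3 libraries of a group came from separate cultures, so p-values measure the spread between these libraries, which may be technical. All libraries come from a single cell line.

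Mitochondria keep their own ribosome, which translates the few messages encoded in mitochondrial DNA, all of them subunits of the respiratory chain and ATP synthase. Its RNA is made inside the organelle, whereas its proteins are encoded in the nucleus, made on cytosolic ribosomes and imported. Many of these proteins descend from bacterial ribosomal proteins and others were added in mitochondria, and the number in a symbol does not always give the place of the protein. Macrophages are known to shift between glycolysis and respiration when activated.

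The libraries held between 19989318 and 22179544 counts with ASPS-A1 and between 23113454 and 26137127 counts in control. After a filter on low counts 11686 genes were tested, and all 78 members passed it. Of all tested genes 32.4% were higher with ASPS-A1 and 33.0% were lower (edgeR quasi-likelihood test, two-sided, Benjamini-Hochberg adjusted p under 0.05 over all tested genes), so a call in either direction was common. Macrophage markers were listed above 0 in full (9 of 9, summed level 3077 to 3190 CPM with ASPS-A1 and 2190 to 2211 CPM in control, where CPM is the count scaled to the size of the library). Of 5 T cell markers, Cd3e, Cd3g and Cd2 were at 0 in every library, and the list summed to 4.73 to 6.73 CPM with ASPS-A1 and 2.22 to 2.62 CPM in control. Markers of fibroblasts summed to at most 0.815 CPM with ASPS-A1 and 0.581 CPM in control, and those of epithelium to at most 0.265 CPM with ASPS-A1 and 0.116 CPM in control, with Epcam and Krt8 at 0. Those of B cells summed to 31.8 to 38.3 CPM with ASPS-A1 and 30.3 to 32.6 CPM in control. Endothelial markers summed to 12.7 to 13.9 CPM with ASPS-A1 and 7.01 to 8.30 CPM in control. The part of other cell types in the results was not tested. In a bulk library, fewer cells of a type and less RNA per cell cannot be told apart.

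Messages for the proteins of the mitochondrial ribosome rose almost throughout. Of 78 members, 75 were higher with ASPS-A1, against 32.4% of all tested genes, 1 was lower, and 2 did not pass the threshold. The median log2 fold change of the members was 0.63, against −0.02 over all tested genes, and the members' quartiles were 0.44 and 0.81. Of the members, 43 were more than 1.5-fold higher, which held for 12.8% of all tested genes. In 74 members every ASPS-A1 library lay above every control library (33.7% of tested genes), and in 1 every ASPS-A1 library lay below (34.8% of tested genes). The groups overlapped in Mrpl44, Mrpl43 and Mrpl36. With correction for transcript length and GC content, which is described further down, 61 members were higher and 3 lower, with a median of 0.35. Scaled by library totals alone, 64 members were higher and 3 lower, with a median of 0.43. That scaling moved the median of all tested genes to −0.22 and its calls to 21.6% higher and 46.7% lower, so the members again lay above the median gene. With DESeq2 (32.0% of tested genes higher, 30.9% lower) and with the replicate number as a block (32.1% higher, 32.6% lower), 75 members were higher and 1 lower.

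**Figure D1:**
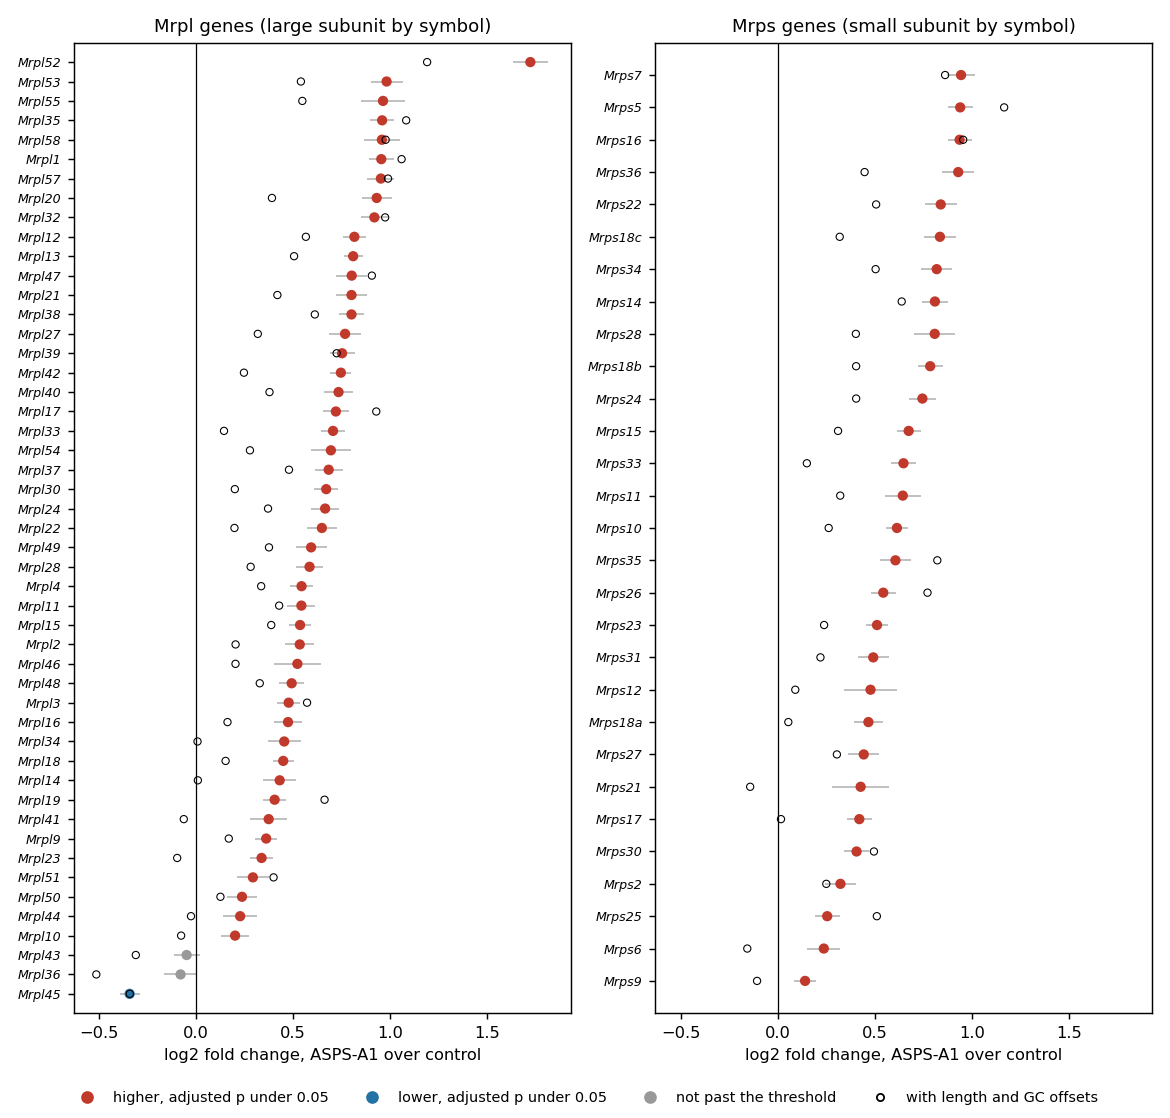
Log2 fold change (ASPS-A1 over control, horizontal axis) of each mitochondrial ribosomal protein gene, Mrpl and Mrps genes in separate panels; points with bars are the estimate ± SE, and the second symbol is the estimate with length and GC offsets. Of 49 Mrpl genes 46 were higher, with Mrpl45 lower at −0.34, and all 29 Mrps genes were higher, from 0.14 to 0.94.

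As a summed level, the members held 0.459%, 0.479% and 0.449% of all counts in the ASPS-A1 libraries, against 0.350%, 0.352% and 0.345% in the control libraries. The groups did not overlap. The mean share was 0.462% ± 0.0151 with ASPS-A1 and 0.349% ± 0.00339 in control (SD, n = 3 each), a ratio of 1.32. Of the counts of nuclear-encoded genes alone, the members held 0.493% ± 0.0156 with ASPS-A1 and 0.374% ± 0.00234 in control. Replicates of a single member differed little, with a median SD of 5.24% of the mean CPM with ASPS-A1 and 5.07% in control. The widest spread with ASPS-A1, 19.2%, belonged to Mrps21.

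Mrpl and Mrps genes had similar medians, and the ratio of their summed counts overlapped between the groups. Of 49 Mrpl genes 46 rose, 1 fell and 2 did not pass, with a median log2 fold change of 0.65. All 29 Mrps genes rose, with a median of 0.61. The Mrpl genes held 0.309% ± 0.0104 of counts with ASPS-A1 and 0.233% ± 0.00178 in control, and the Mrps genes 0.153% ± 0.00487 and 0.116% ± 0.00195 (SD, n = 3 each). The ratio of summed Mrps to Mrpl counts was 0.503, 0.494 and 0.494 in the ASPS-A1 libraries, against 0.496, 0.507 and 0.496 in the control libraries. These ratios overlapped, and the difference of their log2 means, −0.0071, was smaller than the SD within either group, 0.0148 with ASPS-A1 and 0.0187 in control. With genes placed by where the protein sits in the solved ribosome, including 5 subunits with other names, 30 of 30 small-subunit genes rose (median 0.63) and 49 of 52 large-subunit genes rose (median 0.59), with 1 lower. By that placing the difference of the log2 ratios was −0.0180, with an SD of 0.0192 with ASPS-A1 and 0.0144 in control.

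**Figure D2:**
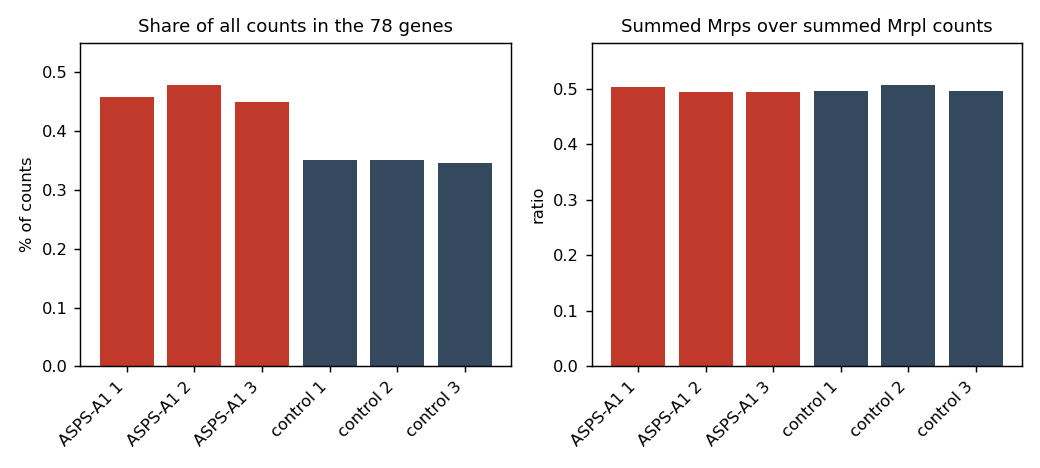
Share of all counts (percent) held by the members and the ratio of summed Mrps to Mrpl counts in each library, ASPS-A1 bars left of control bars. The shares are 0.449% to 0.479% with ASPS-A1 and 0.345% to 0.352% in control, while the ratio stays between 0.494 and 0.507 in all 6 libraries.

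Members of bacterial origin and members added in mitochondria had similar medians. Of 46 members with a bacterial relative, 45 rose, none fell and 1 did not pass (median 0.65). Of 31 that are specific to mitochondria, 29 rose, 1 fell and 1 did not pass (median 0.59). Mrps36, which is in neither class, is treated further down. Per kilobase of annotated transcript, the median level was 37.8 CPM with ASPS-A1 and 27.8 CPM in control for Mrpl genes, and 36.5 CPM and 21.2 CPM for Mrps genes. These medians of levels fall on different genes in the groups, so their ratios are not median fold changes. In control the levels per kilobase ran from 6.50 CPM for Mrpl58 to 121 CPM for Mrpl33.

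Mrpl52, a mitochondria-specific protein of the large subunit, had the largest fold change. It had 136, 143 and 111 CPM in the ASPS-A1 libraries, against 36.8, 43.6 and 38.0 CPM in the control libraries. All treated libraries lay far above all controls, with a log2 fold change of 1.72 ± 0.09 (SE), 3.30-fold (edgeR adjusted p = 4.84e-10). The next member reached 0.98. With the length and GC correction Mrpl52 stood at 1.19, next to Mrps5 at 1.17.

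The 7 members that followed lay between 0.94 and 0.98. Mrpl53, a mitochondria-specific subunit, had 36.8, 40.5 and 36.5 CPM with ASPS-A1, against 19.6, 19.9 and 18.2 CPM in control (0.98 ± 0.08, edgeR adjusted p = 1.90e-14). Of its exon length 88.0% overlaps other annotated genes, so its counts are uncertain. Mrpl55, the relative of bacterial L31, had 20.6, 20.7 and 17.2 CPM with ASPS-A1, against 8.55, 11.5 and 9.93 CPM in control. Mrpl35, the relative of bacterial L35, had 92.8, 94.6 and 87.2 CPM with ASPS-A1, against 47.2, 50.4 and 43.7 CPM in control (0.96 ± 0.06, adjusted p = 3.83e-18). In each of these the groups were well separated.

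Mrpl58, also called ICT1, is a peptidyl-tRNA hydrolase built into the large subunit, known in human cells for freeing stalled chains. It had 34.6, 32.7 and 28.0 CPM with ASPS-A1, against 18.0, 15.5 and 15.7 CPM in control, 1.94-fold higher (edgeR adjusted p = 1.18e-12). Mrpl1, whose bacterial relative forms the stalk beside the tRNA exit, had 72.7, 68.1 and 71.2 CPM with ASPS-A1, against 38.0, 34.5 and 37.0 CPM in control. Mrpl57, a mitochondria-specific subunit, had 65.5, 75.2 and 62.1 CPM with ASPS-A1, against 33.7, 35.2 and 35.8 CPM in control. No treated library of these genes came near a control library. Mrps7, whose bacterial relative starts the folding of part of the small-subunit RNA, had 52.9, 64.4 and 57.2 CPM with ASPS-A1, against 29.1, 30.9 and 30.6 CPM in control (0.94 ± 0.07, adjusted p = 1.52e-15), a rise that did not differ beyond its SE from those of Mrps5 (0.94) and Mrps16 (0.94).

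At the other end stood Mrpl45, the subunit at the exit of the peptide tunnel that ties the ribosome to the inner membrane. It had 106, 106 and 113 CPM in the ASPS-A1 libraries, against 134, 140 and 140 CPM in the control libraries. It was the only member that fell, and its groups did not overlap. The log2 fold change was −0.34 ± 0.05 (1.27-fold lower, edgeR adjusted p = 1.14e-07), and it was −0.34 with the length and GC correction and −0.54 with library totals alone. Leaving out each library in turn left it between −0.37 and −0.32.

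Mrpl43 and Mrpl36 did not pass the threshold. Mrpl43, a mitochondria-specific subunit, had 46.6, 44.9 and 43.4 CPM with ASPS-A1, against 46.5, 45.8 and 47.2 CPM in control (−0.05 ± 0.07, edgeR adjusted p = 0.544). It shares 33.4% of its exon length with Twnk, the gene of the mitochondrial DNA helicase, which lies on the opposite strand and fell. Whether this overlap bears on the counts of Mrpl43 was not tested. Mrpl36, a small protein with a bacterial relative, had 23.1, 23.6 and 22.3 CPM with ASPS-A1, against 23.1, 23.8 and 25.9 CPM in control (−0.08 ± 0.09, adjusted p = 0.431). Both were lower with the length and GC correction (−0.31, adjusted p = 2.94e-05, for Mrpl43, and −0.51, adjusted p = 4.95e-07, for Mrpl36) and with library totals alone (−0.24 and −0.28). Both genes are named because so few missed the threshold, after their values were seen.

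Among the members of highest mean level, Mrpl13, a relative of bacterial L13, led. It had 215, 233 and 221 CPM with ASPS-A1, against 130, 131 and 121 CPM in control (0.81 ± 0.05, edgeR adjusted p = 5.00e-19), the groups standing far apart. Mrpl24, whose bacterial relative sits near the tunnel exit, had 144, 185 and 166 CPM with ASPS-A1, against 110, 104 and 98.2 CPM in control (0.67 ± 0.07). Mrpl42, a mitochondria-specific subunit, had 126, 128 and 122 CPM with ASPS-A1, against 74.9, 72.0 and 77.4 CPM in control (0.75 ± 0.05). Neither gene had overlapping groups, and Mrpl45, already described, belongs to the same 5.

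The factor-binding side of the large subunit holds a stalk that recruits the translation GTPases. Mrpl12, the stalk protein related to bacterial L7/L12, had 115, 139 and 119 CPM with ASPS-A1, against 72.9, 70.9 and 68.4 CPM in control (0.82 ± 0.06, edgeR adjusted p = 6.31e-16). Mrpl10, which anchors it, had 46.3, 48.0 and 44.7 CPM with ASPS-A1, against 37.9, 38.9 and 44.0 CPM in control. Its groups were separated by a narrow margin, and the rise of 0.20 ± 0.07 (adjusted p = 0.0124) did not hold with the length and GC correction (−0.08, adjusted p = 0.328) or with library totals alone (0.01, adjusted p = 0.953). It also did not pass without ASPS-A1 replicate 2 (0.17), control replicate 1 (0.16) or control replicate 2 (0.18). Mrpl11, which forms the GTPase-associated centre, had 51.6, 61.8 and 52.5 CPM with ASPS-A1, against 37.3, 37.2 and 39.3 CPM in control (0.54 ± 0.07).

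In the small subunit, Mrps12, whose bacterial relative lies at the decoding site, was low. It had 11.7, 11.1 and 8.37 CPM with ASPS-A1, against 7.30, 7.98 and 7.13 CPM in control (0.48 ± 0.14, edgeR adjusted p = 0.00242). The lowest treated library stood just above the highest control, and the rise did not pass with the length and GC correction (0.09, adjusted p = 0.576) or with library totals alone (0.28, adjusted p = 0.0721). Mrps16, Mrps22 and Mrps34 are genes in which human mutations impair mitochondrial translation. Mrps16 had 87.1, 88.6 and 81.3 CPM with ASPS-A1, against 43.8, 45.5 and 44.8 CPM in control (0.94 ± 0.06). Mrps22 had 44.2, 45.5 and 41.1 CPM with ASPS-A1, against 28.0, 23.4 and 21.9 CPM in control (0.84 ± 0.08). Both were clearly apart. Mrps34 had 36.9, 42.3 and 38.5 CPM with ASPS-A1, against 23.4, 22.5 and 20.8 CPM in control (0.82 ± 0.08), with 77.8% of its exon length inside other annotated genes. Mrpl44, a large-subunit protein with a ribonuclease III fold, had 27.3, 30.7 and 25.4 CPM with ASPS-A1, against 25.7, 23.0 and 22.5 CPM in control. Its groups overlapped, the log2 fold change was 0.23 ± 0.09 (adjusted p = 0.0202), and it was −0.03 with the length and GC correction (adjusted p = 0.802). It did not pass without ASPS-A1 replicate 2 (0.15), control replicate 2 (0.20) or control replicate 3 (0.19).

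**Figure D3:**
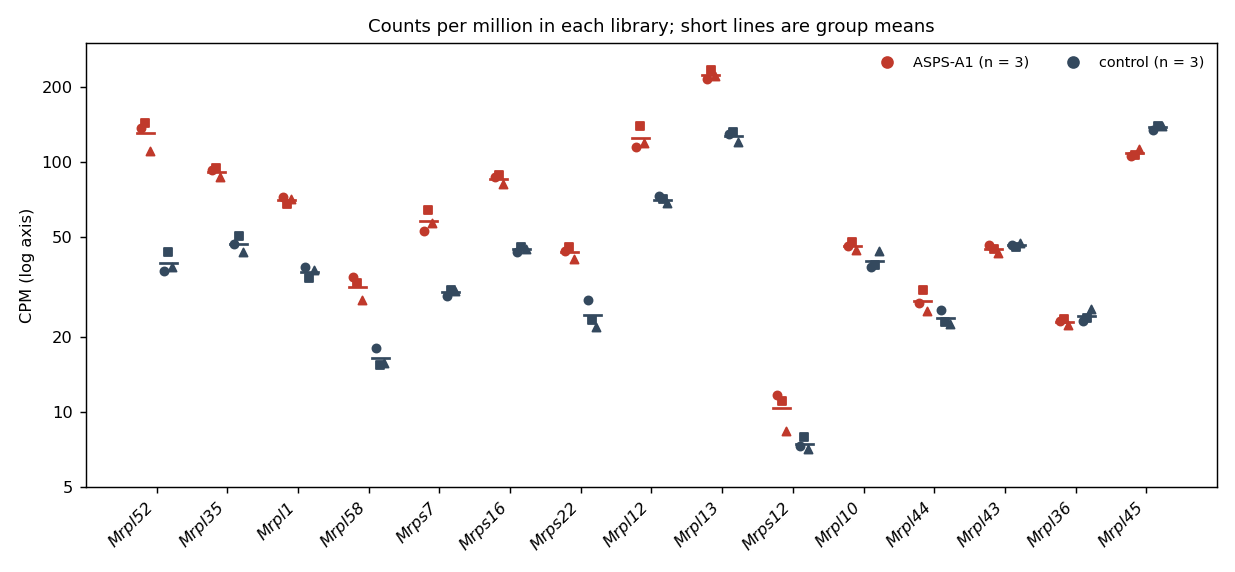
CPM on a log axis in each library for members described in the text, ASPS-A1 points left of control points, with short lines at the group means and a symbol shape for each replicate number. Mrpl52 is at 111 to 143 CPM with ASPS-A1 and 36.8 to 43.6 CPM in control, while Mrpl45 is at 106 to 113 CPM with ASPS-A1 and 134 to 140 CPM in control.

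For 3 Mrps genes the symbol does not give the place of the protein. Mrps18a and Mrps30 sit in the large subunit, and Mrps36 is a subunit of the 2-oxoglutarate dehydrogenase complex. Mrps18a had 45.2, 47.4 and 47.0 CPM with ASPS-A1, against 30.7, 36.3 and 33.9 CPM in control (0.47 ± 0.07, edgeR adjusted p = 2.96e-07, but 0.05 with the length and GC correction, adjusted p = 0.511). Mrps30 had 62.9, 70.9 and 64.8 CPM with ASPS-A1, against 50.3, 51.6 and 48.0 CPM in control (0.41 ± 0.06). Mrps36 had 47.5, 49.2 and 39.7 CPM with ASPS-A1, against 24.5, 25.8 and 21.4 CPM in control (0.93 ± 0.08). In all of them the groups were separate, and Mrps36, which is not ribosomal, lay above the members' median of 0.63.

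Another 5 proteins of the mitochondrial ribosome carry other names. The genes of all 5 rose, against 32.4% of all tested genes, with a median of 0.49. With the length and GC correction 4 of 5 rose (32.4% of all tested genes), and so did 4 of 5 with library totals alone (21.6%). Aurkaip1, a small-subunit protein, had 52.9, 65.8 and 59.6 CPM with ASPS-A1, against 31.3, 32.0 and 28.7 CPM in control (0.95 ± 0.07, edgeR adjusted p = 3.00e-15). Chchd1, also of the small subunit, had 116, 122 and 123 CPM with ASPS-A1, against 62.5, 72.4 and 58.4 CPM in control (0.90 ± 0.06). Ptcd3, a pentatricopeptide repeat protein where mRNA enters, had 112, 106 and 111 CPM with ASPS-A1, against 80.0, 78.4 and 75.0 CPM in control (0.49 ± 0.05). These were well apart. Gadd45gip1, a large-subunit protein, had 19.5, 25.5 and 18.6 CPM with ASPS-A1, against 13.6, 15.9 and 17.2 CPM in control (0.44 ± 0.11). Dap3, a GTP-binding small-subunit protein, had 179, 184 and 171 CPM with ASPS-A1, against 158, 154 and 155 CPM in control (0.20 ± 0.05, adjusted p = 0.000453). With the length and GC correction Dap3 stood at −0.06 (adjusted p = 0.212) and with library totals alone at −0.00 (adjusted p = 0.994).

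Transcript length moved with the comparison as a whole. Over 11387 genes with an annotated length (the median over protein-coding transcripts in GENCODE M21), the Spearman correlation of log2 fold change with length was −0.388, as a description, since the genes share the same 6 libraries. The members are short, with a median of 1224.5 nt against 2667 nt for all tested genes, and 54 of 78 lie in the 3 shortest of 10 equal bins. In the shortest bin, 195 to 1075.5 nt, the median log2 fold change was 0.67 for 34 members and 0.45 for all genes. In the next bin it was 0.52 for 15 members and 0.30 for all genes. Among genes longer than 2667 nt, 14 members had a median of 0.66, against −0.20 for 5693 genes, and 14 of the 14 rose, against 17.9% of those genes. As 32.4% of all tested genes were higher, the share among the shorter genes, where most members lie, was above 32.4%. Within the members the correlation with length was −0.0652 (n = 78), with GC content −0.0500, and with the mean control CPM −0.187.

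**Figure D4:**
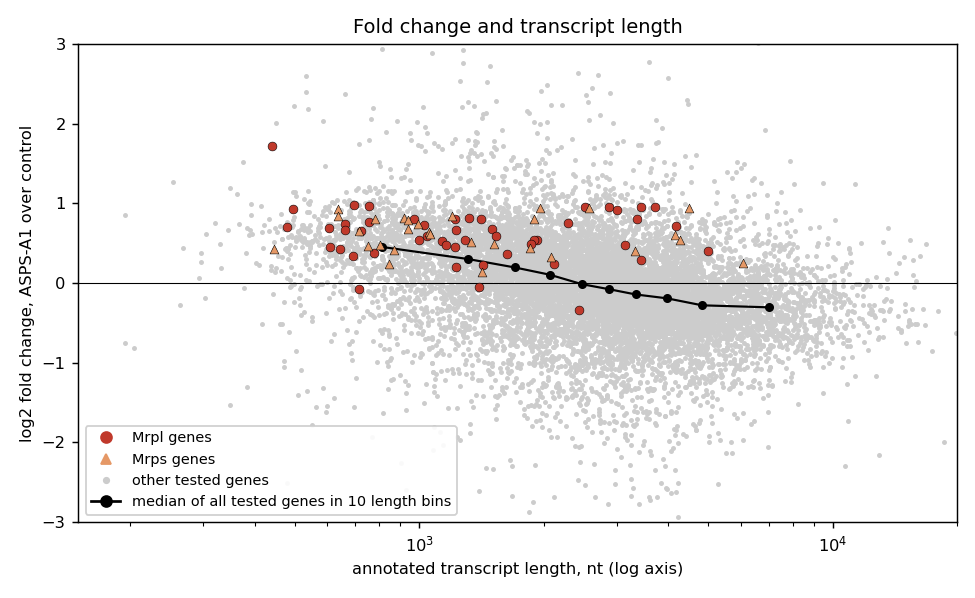
Log2 fold change (ASPS-A1 over control) against annotated transcript length in nt on a log axis, for Mrpl genes, Mrps genes and other tested genes; the line joins the medians of all tested genes in 10 length bins, and the axes leave out the most extreme of the other genes. The line falls with length from 0.45 to −0.31, while members lie above it at most lengths.

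A fit with smooth offsets for length and GC content in each library left a Spearman correlation of −0.0075 with length over the same genes, with a median of 0.03 in the shortest bin and −0.01 in the longest. With it 32.4% of all tested genes were higher and 30.1% lower, and 61 members were higher, 3 lower and 14 not past the threshold. The lower ones were Mrpl45, Mrpl43 and Mrpl36. In addition 7 members that were higher without the offsets had values below 0 that did not pass the threshold: Mrps6 (−0.16), Mrps21 (−0.14), Mrps9 (−0.11), Mrpl23 (−0.10), Mrpl10 (−0.08), Mrpl41 (−0.06) and Mrpl44 (−0.03). Of Mrpl genes 38 rose and 3 fell (median 0.37), and of Mrps genes 23 rose and none fell (median 0.32). Mrpl52 kept a log2 fold change of 1.19, whereas Mrpl53 stood at 0.54 and Mrpl55 at 0.55. Mrpl35, Mrpl1 and Mrps5, the last a relative of bacterial S5, stood at 1.08, 1.06 and 1.17 with the offsets and at 0.96, 0.95 and 0.94 without them. Whether the length trend comes from the RNA, the libraries or the cells was not tested.

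Some members share exon sequence with other annotated genes, and the sources used here do not say whether counting used the strand, so their counts may be split or mixed. Of 53 members that share under 5% of their exon length, 51 rose, 1 fell and 1 did not pass (median 0.65). Of the 25 others, 24 rose, none fell and 1 did not pass (median 0.52). Mrps11 and Mrpl46 are neighbours on opposite strands that share some exon sequence. Mrps11 had 24.1, 25.7 and 23.7 CPM with ASPS-A1, against 15.8, 15.5 and 15.7 CPM in control. Mrpl46 had 13.2, 15.8 and 15.9 CPM with ASPS-A1, against 9.48, 9.29 and 12.4 CPM in control. In both genes every treated library lay above every control library.

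RefSeq promoter windows (GRCm38.p6, 250 bases before to 50 after the annotated start) were matched by symbol for 69 of 78 members. Mrpl13, Mrpl15, Mrpl19, Mrpl38, Mrpl4, Mrpl54, Mrps28, Mrps34 and Mrps35 had no window. The motifs searched on both strands belong to factors known to act at promoters of mitochondrial genes. The ETS motif CCGGAAG was in 36.2% of member windows, against 19.2% of the windows of 9277 tested genes. The YY1 motif AAGATGGCG was in 11.6% of member windows and 3.44% of tested-gene windows. The NRF1 motif, GCGCA and GCGC with any base between them, was in 18.8% of member windows and 10.9% of tested-gene windows. The E-box CACGTG was in 7.25% of member windows and 10.3% of tested-gene windows. A match is a run of letters and no evidence of binding.

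The upstream 250 bases of 5 members are shown because they lie at the extremes of the response or hold a motif: Mrpl52 and Mrpl57 from the top, Mrps22 from the small subunit, Mrpl36 without a call, and Mrpl45, the member that fell. They were chosen after the values were seen. Each is given 5′ to 3′ on the strand of its gene and ends at the base before the start; capitals mark matches to the motifs on either strand. Mrpl52 lies at chr14:54426659-54426908 (plus strand) with an ETS match, and Mrpl57 at chr14:57825989-57826238 (plus strand) with an NRF1 match. Mrps22 lies at chr9:98601680-98601929 (minus strand) with an ETS match. Mrpl36 lies at chr13:73330759-73331008 (plus strand) with an E-box and a YY1 match. Mrpl45 lies at chr11:97315466-97315715 (plus strand) with 2 NRF1 matches.
Mrpl52 promoter: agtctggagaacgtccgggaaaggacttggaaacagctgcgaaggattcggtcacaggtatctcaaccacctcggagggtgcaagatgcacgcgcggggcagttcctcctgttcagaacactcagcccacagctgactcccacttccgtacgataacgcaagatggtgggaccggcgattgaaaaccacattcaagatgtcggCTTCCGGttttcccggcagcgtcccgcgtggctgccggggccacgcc
Mrpl57 promoter: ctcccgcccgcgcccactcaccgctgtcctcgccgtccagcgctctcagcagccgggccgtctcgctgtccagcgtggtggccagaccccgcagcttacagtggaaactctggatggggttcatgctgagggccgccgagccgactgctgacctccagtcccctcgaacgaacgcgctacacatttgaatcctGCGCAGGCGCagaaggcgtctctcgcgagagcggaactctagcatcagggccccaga
Mrps22 promoter: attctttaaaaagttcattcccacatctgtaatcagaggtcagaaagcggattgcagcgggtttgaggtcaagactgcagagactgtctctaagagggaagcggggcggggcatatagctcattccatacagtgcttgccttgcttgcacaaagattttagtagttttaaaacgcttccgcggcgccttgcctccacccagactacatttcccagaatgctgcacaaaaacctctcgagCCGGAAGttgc
Mrpl36 promoter: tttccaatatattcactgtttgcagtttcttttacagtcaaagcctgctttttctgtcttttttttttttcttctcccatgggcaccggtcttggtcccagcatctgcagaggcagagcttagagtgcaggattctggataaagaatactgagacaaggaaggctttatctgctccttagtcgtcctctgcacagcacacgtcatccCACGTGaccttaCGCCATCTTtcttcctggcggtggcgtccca
Mrpl45 promoter: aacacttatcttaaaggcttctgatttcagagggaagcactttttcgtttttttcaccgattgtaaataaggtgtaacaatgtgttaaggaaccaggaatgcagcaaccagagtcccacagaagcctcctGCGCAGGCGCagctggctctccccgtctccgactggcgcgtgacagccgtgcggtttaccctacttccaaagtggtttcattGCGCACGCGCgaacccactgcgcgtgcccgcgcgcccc
The sequences of Mrpl57, which rose, and Mrpl45, which fell, hold matches to the same pattern, and Mrpl52 and Mrps22, both higher, hold the ETS run on opposite strands.

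Among the genes that build and serve the mitochondrial ribosome, calls went in both directions. Of 26 assembly factors 11 rose, 4 fell and 11 did not pass (median 0.13), against 32.4% higher and 33.0% lower among all tested genes. With library totals alone 7 rose and 8 fell, when 21.6% of all tested genes were higher and 46.7% lower. The count of lower ones was not stable, with 1 by DESeq2, 2 by limma-voom, 2 when either ASPS-A1 replicate 2 or 3 was left out, and 0 by edgeR when control replicate 3 was (3 at an unadjusted p under 0.05). Rpusd3, a pseudouridine synthase of mitochondrial RNA, had 8.26, 6.41 and 6.41 CPM with ASPS-A1, against 2.94, 2.59 and 3.79 CPM in control (log2 fold change 1.17). Rpusd4, a related enzyme, stood at 0.74, and Malsu1, which keeps the immature large subunit from joining, at 0.73. Among those called lower, Ybey, an endoribonuclease, stood at −0.69, Mrm1, which methylates the large-subunit RNA, at −0.30, and Eral1, a chaperone of the small-subunit RNA, at −0.26. All 3 calls were lost on leaving out a library (edgeR adjusted p up to 0.257 for Ybey, 0.138 for Mrm1 and 0.232 for Eral1), and those of Ybey and Mrm1 also with the length and GC correction (adjusted p = 0.157 and 0.0561). Ybey was low in all libraries, with 1.96, 2.17 and 1.32 CPM with ASPS-A1, against 2.26, 2.59 and 3.90 CPM in control.

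Of 15 translation factors 9 rose, 2 fell and 4 did not pass (median 0.36), against 32.4% higher and 33.0% lower among all tested genes. With library totals alone 7 rose and 4 fell, when 21.6% of all tested genes were higher and 46.7% lower. Mtres1, which rescues stalled mitochondrial ribosomes, had 39.4, 42.8 and 34.2 CPM with ASPS-A1, against 15.4, 18.5 and 19.0 CPM in control (1.14). Mrrf, the recycling factor, stood at 0.76 and Gfm2, its partner GTPase, at 0.60. Taco1, an activator of COX1 translation, fell (−0.62), with 8.21, 8.86 and 8.10 CPM with ASPS-A1, against 12.5, 14.4 and 11.9 CPM in control, and so did Mtfmt, which formylates the initiator tRNA (−0.37, but −0.22 and not past the threshold without ASPS-A1 replicate 1). Of 10 genes of mitochondrial transcription and transcript upkeep 3 rose and 5 fell (median −0.06), where 3 of 10 is near the 32.4% of all tested genes that were higher. The share of all tested genes that were lower was 33.0%. Twnk (−0.88), Tefm, a transcription elongation factor (−0.83), and Polg, the DNA polymerase (−0.74), fell. Slirp, which protects mitochondrial messages (0.70), Mtpap, their poly(A) polymerase (0.56), and Ssbp1, a DNA-binding protein (0.26), rose, Ssbp1 turning to −0.11 with the length and GC correction.

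**Figure D5:**
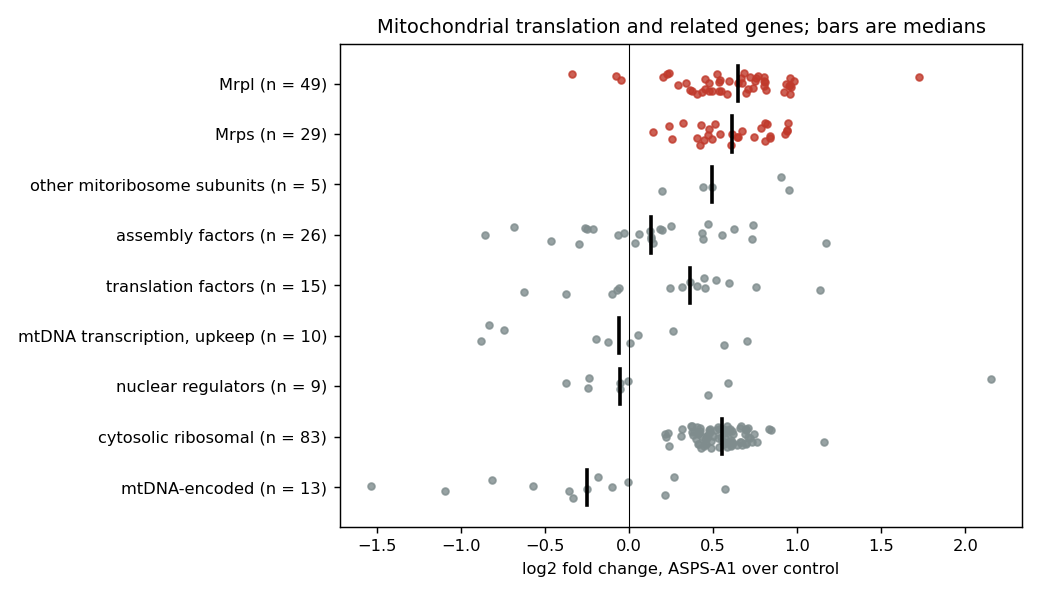
Log2 fold change (ASPS-A1 over control) of each gene in the member groups and related lists; points are genes and bars are medians. The medians are 0.65 for Mrpl and 0.61 for Mrps genes, 0.36 for translation factors, 0.13 for assembly factors and −0.25 for the mitochondrially encoded genes.

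The messages that the mitochondrial ribosome translates were called in both directions. Of 13 mitochondrially encoded genes 2 rose, 7 fell and 4 did not pass (median −0.25), against 32.4% higher and 33.0% lower among all tested genes. They held 6.18% ± 0.203 of counts with ASPS-A1 and 6.74% ± 0.401 in control (SD, n = 3 each). With the length and GC correction 1 rose and 10 fell, when 32.4% of all tested genes were higher and 30.1% lower. With library totals alone 1 rose and 9 fell, when 21.6% of all tested genes were higher and 46.7% lower. ND4, a complex I subunit, was the largest rise, with 4079, 4469 and 4497 CPM with ASPS-A1, against 2898, 2930 and 2965 CPM in control. ND3, another subunit of that complex, had 21.8, 21.6 and 17.0 CPM with ASPS-A1, against 51.2, 62.1 and 61.8 CPM in control. These transcripts are cut from long precursors and selected here by their poly(A) tails, and the effect of that selection was not tested.

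The cytosolic ribosomal protein genes were taken by symbol (names with Rpl or Rps and a number, which also takes Rps19bp1, Rpl7l1, Rpl22l1 and Rps27l). Without the length and GC correction they rose as widely, with a median of 0.55. Of 83 tested, 79 were higher and none lower, against 32.4% and 33.0% of all tested genes. The cytosolic set held 12.8% ± 0.542 of counts with ASPS-A1 and 10.6% ± 0.407 in control. With the length and GC correction 42 of its genes rose and 3 fell (median 0.12), against 32.4% and 30.1% of all tested genes. Of the mitochondrial members 61 of 78 rose with that correction, with a median of 0.35. The difference between the sets was not tested.

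Of 9 transcription regulators of mitochondrial genes 3 rose, 1 fell and 5 did not pass (median −0.05), where 3 of 9 is near the 32.4% of all tested genes that were higher. With the length and GC correction 4 were higher and none lower, when 32.4% of all tested genes were higher and 30.1% lower. With library totals alone 3 were higher and 5 lower, when 21.6% of all tested genes were higher and 46.7% lower. Myc, a growth regulator that binds E-boxes, had 30.4, 25.3 and 22.7 CPM with ASPS-A1, against 6.53, 5.50 and 5.60 CPM in control (2.16, edgeR adjusted p = 1.23e-20). Esrra, a nuclear receptor, stood at 0.59. Nrf1, the factor of the NRF1 motif, had 42.4, 47.0 and 45.3 CPM with ASPS-A1, against 35.5, 30.2 and 31.7 CPM in control (0.47). In Myc and in Nrf1 every treated library lay above every control. Pprc1, a coactivator of the same programme, fell (−0.24, adjusted p = 0.00539), and stood at 0.06 with the length and GC correction (adjusted p = 0.488). Gabpa, an ETS factor subunit (−0.05, adjusted p = 0.467), and Yy1 (−0.01, adjusted p = 0.905) did not pass. Whether any of them bears on the members was not tested.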

How the data were processed

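Per the labels' protocols, RNA with poly(A) tails was selected on oligo(dT) beads, and cDNA was made with random primers. Per the submitters' processing notes the tools were DESeq 1.38.3, HTSeq 0.9.1, HISAT2 2.1.0 and fastp 0.22.0. Genome build, strandedness and treatment of multi-mapping reads: not given in the sources used here. The deposited table holds raw read counts per gene symbol. The authors' counts were filtered (filterByExpr, minimum count 10, minimum total 15), scaled with TMM factors and fitted with edgeR 4.0.16 in R 4.3.3 (quasi-likelihood, robust), with Benjamini-Hochberg adjustment over 11686 genes and a threshold of 0.05. Each SE was taken as the size of the log2 fold change over the root of its F statistic. CPM use the TMM-scaled totals. The common biological coefficient of variation was 5.66%. The script was tested on simulated data. Alternatives used DESeq2 1.42.0, limma 3.58.1 (voom), other scalings and filters, and length and GC offsets (lowess span 0.3). Lengths and exon overlaps came from GENCODE M21.

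The members and lists were chosen with earlier results of these data known. Values per library were given for the 8 largest changes in each direction (at least 10 CPM), the 5 most abundant members, members with a known special part or misplaced symbol, and the 5 subunits with other names; lists gave up to 3 called genes per direction. Genes named beyond that rule (Mrpl43, Mrpl36, Mrps5, Mrps11, Mrpl46, Mrps21, Mrps6, Mrps9, Mrpl23, Mrpl41, Mrpl50, Mrpl33, ND4, ND3, Gabpa, Yy1) were chosen after their values were seen. Some items are not reported here. Same-group libraries had a chi-square of 4.27 to 6.95 per degree of freedom, more than sampling noise gives.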

Additional observations from a re-analysis of the deposited data

How the results depend on the processing

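The count of members higher with ASPS-A1 was 75 with relative log expression factors, DESeq2, limma-voom, no filter and at least 1 CPM in 3 libraries, 70 with upper-quartile factors, 64 with library totals alone and 61 with length and GC offsets. Of all 11686 tested genes, 3867 were higher with relative log expression factors, 3778 with limma-voom and 3441 with upper-quartile factors. With no filter 3788 of 16308 were higher, and with at least 1 CPM 3689 of 10823. The share was 32.0% with DESeq2, 21.6% with totals and 32.4% with offsets. Without each library in turn 71 to 74 members were higher, with 1 lower each time, against 3511 to 3679 of 11778 to 11922 tested genes higher. Besides Mrpl10 and Mrpl44, already described, calls were lost by Mrps21 (without ASPS-A1 replicate 1 or control replicate 3, adjusted p up to 0.116), Mrps6 (without ASPS-A1 replicate 2, control replicate 1 or control replicate 3, up to 0.105), Mrpl50 (without control replicate 1, 0.0916) and Mrps9 (without ASPS-A1 replicate 3, control replicate 1 or control replicate 3, up to 0.0848), by edgeR. The median over all members was 0.58 with upper-quartile factors, 0.43 with library totals alone and 0.35 with the offsets, with and without the replicate block. The median of Mrpl genes was 0.45 with totals and 0.37 with the offsets, and that of Mrps genes 0.42 and 0.32, the offsets giving the same with the replicate block. With totals, offsets, and offsets with the block, 3 members were lower, all of them Mrpl genes. The offsets, alone and with the block, turned the sign of 7 members that were higher, named in the account of the offsets. Among the values described in full they turned the median of all genes (0.0071 and 0.0065), Mrpl10 (−0.077 and −0.073), Mrpl44 (−0.026 and −0.028), Dap3 (−0.061 and −0.062), Ssbp1 (−0.11 with both) and Pprc1 (0.061 with both). Dap3 stood at −0.00046 and Mrps9 at −0.05 with totals. The causes were not tested. Of 23 members named by the rule, 19 kept their call and direction under every alternative; Mrps18a, Mrps12, Mrpl10 and Mrpl44 did not. Deviations of same-numbered libraries correlated at −0.0323, 0.00723 and −0.00343, so no shared deviation by replicate number was seen. That cannot tell whether same-numbered libraries were prepared together. With the replicate block 75 members rose and 1 fell (median 0.63), and no member's call changed. The alternatives by shared exon length and by nuclear-encoded counts were chosen after seeing the data.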
